A study of Mus musculus with 2 samples.

Results

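The 150 nuclei described here carried RNA of genes known from the node, the organizer at the front end of the primitive streak, and from motile cilia. They were chosen from 11605 barcodes in a depth range of 3000 to 30000 RNA UMIs (unique molecular identifiers, 1 per captured RNA molecule) and at least 2000 peak counts. The 11605 were taken from 15341 deposited barcodes. A barcode had to hold at least 1 UMI of Noto, Shh or Foxj1, which 702 did. The 702 were ranked by a score. It was the mean over Noto, Shh, Foxj1, Chrd, Pkd1l1, Zbbx and Cfap44 of the natural log of 1 plus the UMIs per 10000. The 150 highest of the 702 were taken. The nuclei were thus selected on the measured RNA of these 7 genes, whose levels in them are given as a description. All other 11455 barcodes in the depth range served for comparison.

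The material was a pool of mouse embryos at embryonic day 7.0, dissociated with the enzyme TrypLE, from which nuclei were isolated. RNA and open chromatin were read in the same nuclei (a 10x Genomics multiome), with 1 RNA library and 1 accessibility library, no treatment and no second genotype. The tissue, cell type and strain labels instead name small intestine, goblet cells and RedMUC298trTg. Here the nuclei are taken as embryonic, after title, age and protocol, and the strain of the embryos is uncertain. All barcodes carried 1 library suffix, so no nucleus could be assigned to an embryo. With 1 library per assay there is no spread between replicates and no test. Each ratio below comes with an exact 95% interval that covers counting error only.

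The node of the mouse gastrula forms at the anterior tip of the streak and gives rise to the notochord. Its pit cells each carry a motile cilium, and the beating of these cilia drives a leftward fluid flow that Pkd1l1 and Pkd2, a pair of channel proteins, help the surrounding cells to sense. Foxj1 is the master transcription factor of motile cilia, and the RFX factors act with it on a short promoter sequence called the X-box. Noto is a homeobox factor of the node and notochord, Shh is the signal of the notochord, and Chrd encodes chordin, a secreted BMP antagonist of the organizer. Zbbx and Cfap44 belong to the ciliary genes, and Cfap44 is a protein of the ciliary and flagellar axoneme.

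The promoters below carry the sequences to which the cilium results refer. They are the 250 bases before the start in RefSeq (GRCm38.p6), 5′ to 3′ on the strand of the gene. Capitals mark matches to 1 of 4 motifs searched on both strands: the X-box, given by name alone, its short arm GTTGCCA, the forkhead motif TGTTTAC and the T-box motif AGGTGTGA. The short arm can lie within an X-box, as it does in Iqca. Noto was chosen for its accessible promoter, Cfap44 as a rule gene with a match, Ccdc151 and Iqca for a full X-box, and Cfap161 for 3 short arms in a gene of very high ratio.
Noto: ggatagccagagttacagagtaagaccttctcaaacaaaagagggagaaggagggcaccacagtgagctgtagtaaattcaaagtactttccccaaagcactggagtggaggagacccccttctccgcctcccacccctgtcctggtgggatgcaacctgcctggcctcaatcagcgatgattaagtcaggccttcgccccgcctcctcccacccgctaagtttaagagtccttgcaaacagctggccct
Cfap44: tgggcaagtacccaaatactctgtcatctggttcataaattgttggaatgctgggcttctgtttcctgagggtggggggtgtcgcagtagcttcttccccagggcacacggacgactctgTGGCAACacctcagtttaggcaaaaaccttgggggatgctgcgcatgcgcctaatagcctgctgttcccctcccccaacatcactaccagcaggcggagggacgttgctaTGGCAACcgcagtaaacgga
Ccdc151: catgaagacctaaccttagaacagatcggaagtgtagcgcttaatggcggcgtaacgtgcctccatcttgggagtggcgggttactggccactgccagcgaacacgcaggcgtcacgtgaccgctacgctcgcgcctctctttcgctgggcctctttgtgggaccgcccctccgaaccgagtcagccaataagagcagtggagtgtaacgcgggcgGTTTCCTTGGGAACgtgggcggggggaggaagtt
Iqca: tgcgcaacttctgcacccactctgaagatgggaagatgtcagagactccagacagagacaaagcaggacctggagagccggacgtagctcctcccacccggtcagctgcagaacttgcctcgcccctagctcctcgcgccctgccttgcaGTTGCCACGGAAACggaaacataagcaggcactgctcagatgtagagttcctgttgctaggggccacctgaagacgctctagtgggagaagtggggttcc
Cfap161: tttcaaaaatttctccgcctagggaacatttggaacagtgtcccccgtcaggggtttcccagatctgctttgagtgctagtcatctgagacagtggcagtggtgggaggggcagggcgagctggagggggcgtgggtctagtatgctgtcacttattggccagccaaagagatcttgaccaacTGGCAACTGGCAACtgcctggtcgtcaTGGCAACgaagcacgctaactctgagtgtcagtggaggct

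The Ccdc151 X-box runs from base -34 to -21 before the start on chromosome 9, and that of Iqca from -100 to -87 on chromosome 1. Cfap44 has short arms at -130 to -124 and at -20 to -14, and Cfap161 at -67 to -61, -60 to -54 and -40 to -34. The Noto promoter, chr6:85423636-85423885, has no match to any of the 4. Of 32851 promoters of this length, 0.374% held the X-box and 3.66% the short arm. In the list of axonemal dyneins and assembly genes, 3 of 45 promoters (6.67%) held the X-box, those of Ccdc151, Cfap298 and Iqca, and 8 (17.8%) held the short arm. In the intraflagellar transport list, 1 of 34 held the X-box, that of Bbs7. None of the 25 promoters of the radial spoke list, the 14 of ciliary transcription factors or the 18 of the 20 genes of highest ratio held it. The forkhead motif was in 3.17% of all promoters, 1 of 45 axonemal (2.22%), 2 of 25 radial spoke and none of 34 transport promoters. It was also in 1 of 19 organizer and 2 of 15 G2/M cell cycle promoters (13.3%). The T-box motif was in 1.12% of all promoters, in none of these lists, and in 2 of the 18 promoters of highest ratio. A match is a run of letters and not a measured binding site. Promoters were in the table for 5 of the 7 rule genes.

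The 150 nuclei had a median of 10460.5 UMIs, 4265.5 genes and 18616.5 peak counts, against 11360 UMIs, 4414 genes and 19483 peak counts in the others. Scrublet, a doublet caller, marked 4 of the 150 (2.67%) and 719 of the others (6.28%). Among the 702 nuclei ranked, the last taken had a score of 0.3973 and the first left out 0.3967. The 5 nuclei on each side of that line each held 1 to 6 UMIs of Foxj1 and none of Noto, Shh or Zbbx, so the border runs through similar nuclei. The 10903 nuclei without a UMI of Noto, Shh or Foxj1 scored up to 1.29. They stayed among the others whatever their score.

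Foxj1 was detected in 148 of the 150 (98.7%), from 0 to 19 UMIs per nucleus with a median of 2, and in 4.50% of the others. Chrd was detected in 142 (94.7%, 0 to 20 UMIs, median 3) and Pkd1l1 in 143 (95.3%, 0 to 47 UMIs, median 6), against 7.68% and 7.31% of the others. Chrd and Pkd1l1 were also found in many nuclei of like accessibility that were not chosen, as given below. Noto was detected in 39 of the 150 (26.0%, at most 4 UMIs), Zbbx in 50 (33.3%, at most 9) and Cfap44 in 53 (35.3%, at most 9). Shh does not bear out the node label: it gave 4 UMIs in 2 of the 150 nuclei, and 3 of those UMIs lay in 1 nucleus. The choice of nuclei was thus in effect a choice by Foxj1, Chrd and Pkd1l1. With every nucleus thinned to 3000 UMIs, Foxj1 would be seen in 56.8% of the 150 and 1.27% of the others, Noto in 8.32% and 0.0786%, and Zbbx in 19.2% and 0.0748%.

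In 150 nuclei picked for visceral endoderm RNA, which should lack these genes, Foxj1 was seen in 7 (4.67%), Chrd in 9, Pkd1l1 and Cfap44 in 1 each, and Noto, Zbbx and Shh in none, at a median of 15370 UMIs. These nuclei were deeper than the others, and Pkd1l1 was in 7.31% of the others but 1 of these 150. Within the 150, 72 nuclei held 3 of the 7 genes, 33 held 4, 26 held 5, 14 held 6, and 1 held all 7, while 4 held 2. Of the 39 nuclei with Noto, 37 also held Foxj1, 38 Pkd1l1, and 21 Zbbx. Of the 50 with Zbbx, all 50 held Foxj1 and 30 held Cfap44. The choice needed Noto, Shh or Foxj1 and ranked on all 7 genes, so these joint counts follow from it and are a description.

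Each gene was also read with that gene left out of the score and 150 nuclei chosen anew with the other 6. The 7 genes had been picked together with earlier results of these data known, and for all but Foxj1 the nuclei chosen anew shared 129 to 150 with the original set, so these values are a description. Noto was then seen in 35 of 150 nuclei (23.3%) and 0.349% of the rest, and its UMI share was 88.1-fold higher (56.2 to 138). Zbbx stood 305-fold higher (216 to 438) and Cfap44 141-fold higher (106 to 189). Chrd was seen in 129 nuclei (86.0%) and was 36.0-fold higher (32.4 to 39.8), and Pkd1l1 in 124 (82.7%) and 36.9-fold higher (34.2 to 39.9). Without Foxj1 the gate rests on Noto and Shh alone and passes 86 nuclei. Foxj1 was seen in 48 of these (55.8%) and was 25.3-fold higher (21.6 to 29.5). For Shh the interval was wide, 33.2-fold (7.59 to 115), on 4 UMIs.

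**Figure D1:**
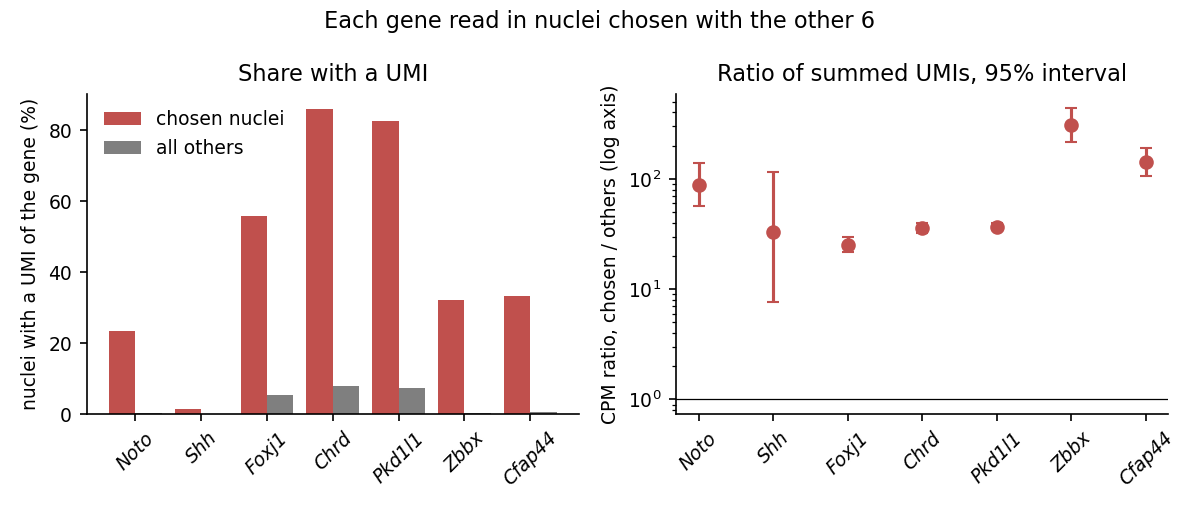
Share of nuclei with a UMI of each gene (left, percent) and ratio of UMI shares (right, log axis, bars are exact 95% counting intervals) when the gene was left out of the choice. Chrd and Pkd1l1 reach 86.0% and 82.7% of the chosen nuclei, Shh 1.33%, and every ratio lies above 1.

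Genes of the motile axoneme were higher in the 150 nuclei, from dynein arms and their anchors to doublet filaments. Over all 21555 genes with at least 10 UMIs in total, 12.8% were at least 2-fold higher in the 150 nuclei. Another 26.6% were at least 2-fold lower, and the median log2 ratio was -0.18. This minimum counts both groups together, so a gene weak in the others can be called on very few UMIs. With at least 20 UMIs expected from the others, 3.93% of 9360 genes were higher and 6.47% lower. Of 52 measured genes for axonemal dyneins, their assembly and outer doublet proteins, 47 were at least 2-fold higher and none was 2-fold lower, with a median log2 ratio of 3.42. Summed over the list the ratio of CPM was 6.39 (6.19 to 6.60), at 2420 against 378 CPM (UMIs of the list per 1000000 UMIs). Per nucleus the list held from 2.99 to 96.8 UMIs per 10000 in the 150, with a median of 17.1, and from 0 to 63.7 with a median of 3.48 in the others. The sets overlap, but the lower quartile of the 150 (9.76) lay above the upper quartile of the others (5.12).

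Dnah5, a heavy chain of the outer dynein arm, had 111 UMIs in 39 of the 150 nuclei and 95 UMIs in 87 of the 11455 others, a 96.9-fold ratio (73.0 to 129). Dnah9, which pairs with it in the outer arm, was 33.1-fold higher (24.9 to 43.6), and Dnah11, a heavy chain mutated in left-right defects, 8.74-fold higher (7.82 to 9.74) on 362 UMIs. The docking proteins of the outer arm were also high: Ccdc114 was 18.5-fold (16.1 to 21.1), Armc4 36.3-fold (30.3 to 43.4) and Ccdc151, whose X-box is printed above, 27.8-fold (21.8 to 35.3). Cfap53, another protein of the docking region with a known part in laterality, was 29.1-fold higher (20.3 to 41.2). The intermediate chain Dnaic1 was 22.5-fold higher (15.5 to 32.0), while Dnaic2 stood at 4.24 on 9 UMIs.

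Inner arm heavy chains had lower ratios in most cases, with Dnah2 at 3.80 (2.90 to 4.89), Dnah10 at 4.66 and Dnah12 at 2.38 on 9 UMIs each, and Dnah6 at 18.3 on 15 UMIs. Dnah1 and Dnah3 gave 3 and 2 UMIs. The dynein regulatory complex genes Drc1 and Drc7 were 39.5-fold (29.3 to 52.7) and 112-fold (70.4 to 180) higher. Ccdc39 and Ccdc40, which together set the spacing of arms and spokes along the doublet, were 14.4-fold (12.2 to 17.0) and 7.61-fold (6.11 to 9.38) higher. The tektins, filaments inside the doublets, were among the highest, with Tekt1 48.8-fold (36.0 to 65.7), Tekt2 44.6-fold (28.7 to 68.3) and Tekt4 184-fold (80.2 to 459), the last on 20 UMIs against 9. Cytoplasmic assembly factors varied more: Lrrc6 stood at 21.3-fold (14.4 to 30.8) and Dnaaf3 at 14.4-fold (11.0 to 18.6), while Dnaaf2 at 1.57 and Dnaaf5 at 1.90 stayed under 2-fold. The testis-type heavy chains Dnah8 and Dnah17 gave 7 and 3 UMIs, at ratios of 0.95 and 0.584. Reads of the near-identical Dnah7a and Dnah7b may be split between them, so their ratios of 4.08 and 4.40 are uncertain.

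Node cilia of the pit are mostly described as lacking the central pair, so the list of radial spoke and central apparatus genes was read separately. Of 28 measured genes, 25 were at least 2-fold higher and 2, Rsph6a and Spag6, had no UMI in the 150. Of all genes, 12.8% were at least 2-fold higher and 26.6% at least 2-fold lower. The list's ratio was 9.89 (9.43 to 10.4), and its nuclei held 0 to 71.7 UMIs per 10000 (median 6.92) against 0 to 23.0 (median 0.868). Radial spoke genes included Rsph4a at 13.2-fold (10.7 to 16.1), Rsph9 at 24.7-fold (16.3 to 36.5) and Rsph1 at 3.93 on 9 UMIs. Genes of the central apparatus were present as RNA: Spef2 was 76.5-fold higher (61.5 to 94.9), Cfap54 58.5-fold (47.1 to 72.5), Cfap69 49.2-fold (43.6 to 55.3) and Hydin 5.82-fold (3.85 to 8.49). Cfap69 alone was found in 104 of the 150 nuclei, with 0 to 20 UMIs and a median of 2, and in 593 others. Spag6 has a close copy, Spag6l, which had 152 UMIs in 63 of the 150 and was 35.9-fold higher (29.5 to 43.5). It was looked up after Spag6 was seen at 0, and reads of the copies may be misassigned.

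Genes shared by all cilia differed less. Intraflagellar transport and BBSome genes move cargo in both immotile and motile cilia. Of 37 such genes, 25 were at least 2-fold higher and none 2-fold lower, against 12.8% and 26.6% of all genes. The list's ratio was 2.64 (2.56 to 2.71). Ift57 was the highest at 7.20-fold (6.10 to 8.45), then Wdr35 at 6.27-fold (5.36 to 7.31), and Dync2h1, the retrograde motor, was 3.58-fold higher (3.36 to 3.81) on 1024 UMIs. Ift20 (1.24), Ttc21b (1.21) and Tulp3 (1.19) were near the level of the others. Every one of the 150 had UMIs of this list, from 6.55 to 72.9 per 10000 with a median of 25.4, as did 99.8% of the others with a median of 10.6.

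**Figure D2:**
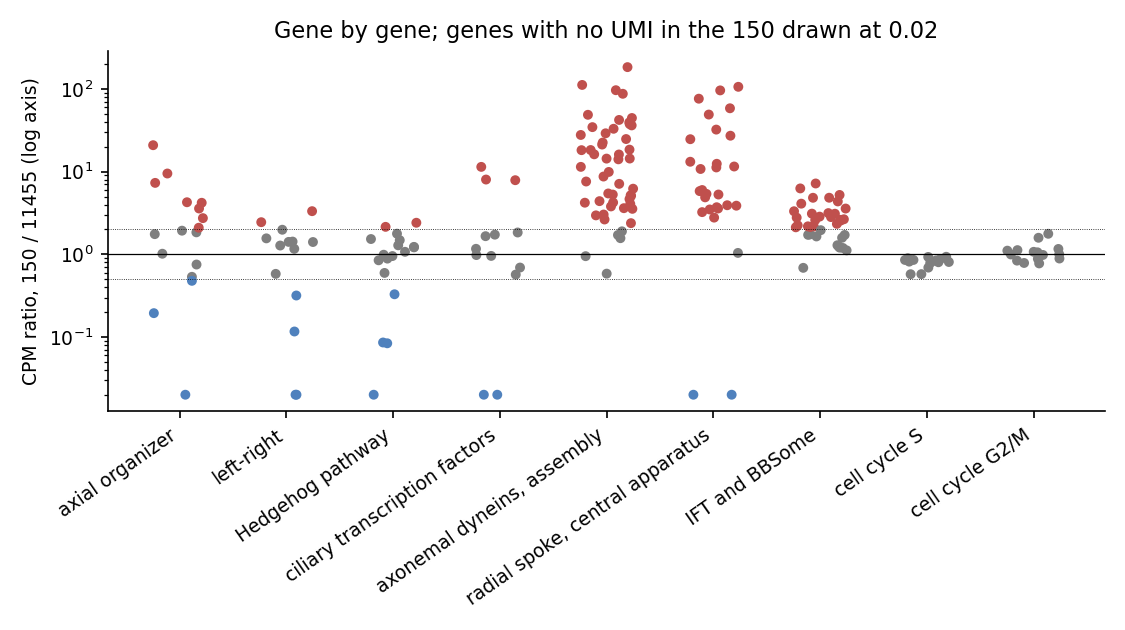
Ratio of UMI share in the 150 nuclei to that in the 11455 others for each measured gene of 9 lists (log axis; dotted lines at 2 and 0.5; red, at least 2-fold higher; blue, at least 2-fold lower). The axonemal and radial spoke lists reach ratios of 184 and 106, while all cell cycle genes lie between 0.5 and 2.

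Among ciliary transcription factors, Rfx3 was found in every nucleus. It had 5995 UMIs in all 150 nuclei, from 1 to 208 per nucleus with a median of 32.5, against 0 to 131 with a median of 3 in the others, and was 8.04-fold higher (7.82 to 8.25). The list of 13 factors had 3 genes at least 2-fold higher and 2 at least 2-fold lower, against 12.8% and 26.6% of all genes, with a median log2 ratio of 0.22. Its summed ratio of 4.35 (4.24 to 4.45) rests on Rfx3, which gave 5995 of its 7039 UMIs, and was 1.20 (1.12 to 1.27) without that gene. Rfx2 was 7.89-fold higher (6.10 to 10.1) on 71 UMIs in 42 nuclei. Rfx1 (1.84) and Rfx7 (0.957) were within 2-fold. Of the factors of multiciliated cells, Mcidas was 11.4-fold higher (4.71 to 24.1) on 8 UMIs. Gmnc and Foxn4, the 2 lower genes of the list of 13, had none in the 150, against 98 and 54 in all others. At that level few or no UMIs were to be expected in the 150, so no decrease is read from them. Ccno, a cyclin-like protein of cells that make many basal bodies, was 31.9-fold higher (24.9 to 40.7) with 94 UMIs in 39 nuclei. In that list of 9 genes for multiciliated and genital tract cells, 5 of 8 measured genes were at least 2-fold higher and 2 at least 2-fold lower. The sum was 83.7 CPM against 7.62, and Sntn, Pax8 and Cdhr4 were at 0.

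By the fixed rule for the 20 highest ratios, 1700028P14Rik was first, 210-fold higher (136 to 332) with 76 UMIs in 38 nuclei. That rule sets its minimum on the 150 alone, so all 20 entered through them and are given as a description. The UMIs expected from the others ran from 0.109 for Tekt4 to 9.16 for Cfap69. Cfap206 (106-fold, 80.8 to 141), Dynlrb2 (104-fold, 61.2 to 177), Cfap65 (96.3-fold, 60.6 to 154) and Cfap52 (87.7-fold, 70.0 to 110) followed Tekt4 and Drc7. Cfap161, with 3 short arms in its promoter, was 91.6-fold higher (46.9 to 180) on 21 UMIs in 16 nuclei. Daw1, Efcab1, Iqub, Ccdc146, Dnajb13 and 1700003E16Rik lay between 49.1 and 75.5. The lncRNA 9830166K06Rik was the exception in kind, with 44 UMIs in 31 nuclei and a 79.3-fold ratio (51.2 to 123). Of 10108 genes with at least 20 UMIs observed or expected in the 150, 817 (8.08%) were at least 2-fold higher and 606 (6.0%) at least 2-fold lower. That minimum lets a gene of low level in only where it is high in the 150. With at least 20 UMIs expected from the others alone, 368 of 9360 genes (3.93%) were higher and 606 (6.47%) lower.

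The genes of lowest ratio included markers of other parts of the embryo. Cubn, an endocytic receptor of visceral endoderm, had 233 UMIs in the 150, 10.8-fold lower in CPM than in the others, and 98 of them lay in 1 nucleus. The lncRNA Gm13270 overlaps Cubn, so its 18 UMIs are not independent. Unc5c, a netrin receptor, had 4 UMIs where 142 were expected, Lama1, a basement membrane laminin, 7 where 152 were expected, and Nrp2, a semaphorin and VEGF co-receptor, 7 where 114 were expected. Prdm6, Abcc2, Hs6st3, Pcsk5 and Kcnh7 completed the 10, at ratios from 0.0679 to 0.0934.

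Organizer genes were higher as a group but unevenly. Of 17 measured genes of the axial organizer list, 8 were at least 2-fold higher and 3 at least 2-fold lower, against 12.8% and 26.6% of all genes, and the sum was 2.31-fold higher (2.24 to 2.39). The 150 held 4.03 to 70.0 UMIs of the list per 10000 (median 19.7) and the others 0 to 79.5 (median 5.49), so single nuclei overlapped widely. Foxa2, the forkhead factor of node, notochord and endoderm, was in 125 nuclei (0 to 19 UMIs, median 2) and 9.51-fold higher (8.64 to 10.4). T, the brachyury factor of streak and notochord, was in 97 nuclei (0 to 12 UMIs, median 1) and 4.27-fold higher (3.77 to 4.81). Calca, which encodes calcitonin and CGRP, was in 107 nuclei (0 to 15 UMIs, median 2) and 20.9-fold higher (18.6 to 23.5). Foxa1 was 7.32-fold, Gsc 4.21-fold, Hhex 3.59-fold and Cer1 2.74-fold higher. Sox17, the endoderm factor, was lower (0.478, 0.317 to 0.692), Nog gave 1 UMI, and Mnx1 and Foxd4 gave none. Of the 3 lower genes only Sox17 thus rests on more than 1 UMI in the 150.

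Of 14 measured left-right genes, 2 were at least 2-fold higher and 4 at least 2-fold lower, shares near the 12.8% and 26.6% of all genes. Of the 4 lower genes, 2 had no more than 33 UMIs in all the others. Lefty1, the midline Nodal antagonist, was 3.33-fold higher (2.75 to 3.99), although its 122 UMIs lay in 43 nuclei with up to 19 in 1. Bicc1, an RNA-binding protein of the node, was 2.45-fold higher (2.15 to 2.78) in 81 nuclei. Pkd2, the channel partner of Pkd1l1, had a ratio of 1.56 (1.31 to 1.84), Nodal 1.41 (1.09 to 1.81) and its co-receptor Cfc1 1.98 (1.64 to 2.38). Dand5, the Nodal antagonist of the node's crown cells, gave 7 UMIs in 6 nuclei, a ratio of 0.580 (0.233 to 1.20) with an interval that includes 1. The left-side gene Lefty2 (15 UMIs) was 3.15-fold lower.

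The Hedgehog pathway, which the node is known to activate through Shh, was near the level of the others. Of 18 genes, 2 were at least 2-fold higher and 4 at least 2-fold lower, shares near those of all genes (12.8% and 26.6%), with a summed ratio of 1.24 (1.17 to 1.31). The ligands Ihh and Dhh gave 1 and 0 UMIs. Response genes gave ratios of 2.15 for Hhip (1.07 to 3.89, 11 UMIs), 1.23 for Ptch1 (1.10 to 1.37) and 1.22 for Gli1 (0.625 to 2.13). The receptor component Smo was at 1.78 and the repressor-forming factor Gli3 at 1.48. Among S phase genes none of 15 passed 2-fold and the sum was 0.807 (0.783 to 0.831). The G2/M sum was 1.11 (1.08 to 1.14), but the median log2 ratio of its genes was 0.00256. They ran from Kif20b at 0.776 to Aspm at 1.59 and Cenpf at 1.77.

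Lists for other cells of the embryo were read in the same nuclei, and their part in the results was not tested. The counts in them stand against the same 12.8% higher and 26.6% lower of all genes. The visceral endoderm list was at 767 CPM against 3519, with all 10 genes at least 2-fold lower and all detected, and from 1.20 to 99.1 UMIs per 10000 per nucleus. The median nucleus differed less than the sums, at 6.42 in the 150 and 7.81 in the others, whose upper quartile was 16.6 and highest value 398. The epiblast list was near the others at 0.921 (0.884 to 0.959), within which Fgf5 was 3.04-fold higher (2.82 to 3.28) in 143 nuclei and Slc7a3 3.60-fold lower. The primitive streak list was 1.82-fold (1.72 to 1.92) and the list of anterior streak and definitive endoderm 2.35-fold higher (2.26 to 2.45). Both share genes with the organizer list, T in the first and Gsc, Lhx1, Foxa2, Cer1, Sox17 and Hhex in the second. They are thus not separate from the organizer result. Embryonic mesoderm stood at 0.462, extraembryonic mesoderm at 0.262, haemato-endothelial cells at 0.268, parietal endoderm at 0.406, extraembryonic ectoderm at 0.368 and ectoplacental cone at 0.396. Germ cell genes gave a sum of 0.970 (0.799 to 1.17), but 4 of 6 were at least 2-fold lower, with Prdm14, Dppa3 and Nanos3 at 0, and Kit alone was higher (2.62, 2.10 to 3.23) with 90 UMIs. The sum was 0.632 for decidua and immune genes, with 4 of 8 at 0. For the conflicting label, the goblet and intestinal list gave 21 UMIs in 18 nuclei, a ratio of 2.88 (1.77 to 4.44), with 2 of 6 measured genes at least 2-fold higher and 3 at least 2-fold lower. The higher ones were Spdef (10 UMIs) and Lgals4 (9 UMIs), while Muc2, Tff3, Agr2, Clca1 and Fcgbp were at 0.

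Accessibility gave a view that no RNA entered. Clustering on peaks divided the depth range into 19 clusters, and 1 of them held 140 of the 150 nuclei (93.3%, 88.1 to 96.8). That cluster held 950 nuclei, 8.19% of the range, so the 150 made up 14.7% of it. The 10 nuclei outside had a median of 18766.5 UMIs against 10229 inside, 2 of the 10 were marked as doublets, and they held 1948 CPM of the visceral endoderm list against 633. A single nucleus, marked as a doublet, gave 195 of their 342 UMIs of that list, and the other 9 stood at 943 CPM. Without those 10 the axonemal list's ratio was 6.71 in place of 6.39.

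The other 810 nuclei of that cluster shared its accessible chromatin and were not chosen by the score, so a difference in cilium genes between them and the members follows the choice in part. Of these 810, 419 held Pkd1l1, 286 Chrd and 83 Foxj1, against 133, 132 and 138 of the 140 members. The rule genes summed to 237 CPM in the 810 and 14.6 CPM in non-members outside the cluster (16.2-fold, 15.2 to 17.2). The organizer list of the 810 was higher than in the 140 members of the cluster, at 2914 against 2246 CPM (0.771 for the members, 0.744 to 0.798). Their axonemal list was lower, at 537 against 2538 (4.72-fold for the members, 4.53 to 4.93), and 44 of 49 measured axonemal genes were at least 2-fold higher in the members, against 8.49% of all 15202 genes measured in this comparison. Radial spoke genes were 6.67-fold (6.23 to 7.14) and transport genes 2.32-fold higher (2.24 to 2.40). Within the organizer list, 3 of 14 measured genes were at least 2-fold higher in the members and 4 at least 2-fold lower, against 8.49% and 7.51% of all genes. The higher ones were T (3.06-fold, 2.63 to 3.56), Calca (5.45-fold, 4.69 to 6.34) and Foxa1 (2.29-fold, 1.66 to 3.12), and Foxa2 stood at 1.74 (1.57 to 1.94). Sox17 was 9.44-fold lower (6.32 to 14.8), Cer1 2.97-fold lower (2.49 to 3.56), Dkk1 2.35-fold lower (1.76 to 3.20) and Lhx1 2.04-fold lower (1.89 to 2.20). Rfx3 was 3.44-fold higher (3.33 to 3.56), Rfx2 9.93-fold (6.63 to 15.1), Bicc1 3.27-fold (2.78 to 3.85) and Ptch1 1.46-fold (1.28 to 1.65), whereas Lefty1 stood at 0.501 (0.400 to 0.619). The visceral endoderm list differed little between these sets (0.852, 0.796 to 0.911), as did median depth, 10229 against 10083 UMIs.

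The members were also compared with sets of 150 nuclei chosen for other identities, at genes that neither choice used. Only the anterior streak and endoderm set was limited to nuclei with a visceral endoderm list level below the median of the depth range. The axonemal list was 5.57-fold higher (5.15 to 6.02) than in primitive streak nuclei, 4.93-fold (4.58 to 5.31) than in anterior streak and endoderm nuclei, and 11.0-fold (10.0 to 12.1) than in visceral endoderm nuclei. Median depths of the 3 sets were 10712.5, 11056.5 and 15370 UMIs. The organizer genes left for each comparison stood at 0.867 (0.829 to 0.907) against streak, 0.856 (0.805 to 0.910) against anterior streak and 8.32 (7.65 to 9.08) against visceral endoderm nuclei. Calca separated the 150 from all 3, at 29.0-fold (16.7 to 55.0), 6.33-fold (4.80 to 8.49) and 126-fold (48.7 to 464). Lefty1 was 7.79-fold higher than in streak nuclei (4.61 to 14.1) but 0.233 of the level in anterior streak nuclei (0.190 to 0.284). Hedgehog genes stood at 0.768 (0.715 to 0.825) against streak and 1.37 (1.26 to 1.49) against anterior streak nuclei.

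The 150 were not uniform. In the 50 nuclei of highest score the axonemal list reached 4425 CPM, in the next 50 it was 1828 and in the last 50 it was 1105, against 655 in the 150 nuclei that followed them in rank and 374 in nuclei without a UMI of Noto, Shh or Foxj1. The organizer list showed no such slope, at 2139, 2487 and 2009, then 1871 and 933. S phase genes were lowest in the top 50, at 2128, 2703 and 2863. The rank rests on Foxj1, Zbbx and Cfap44 among others, so a slope in ciliary genes follows the score and is given as a description. Splits by a gene of the score are likewise a description, since nuclei without that gene entered through the other rule genes. Nuclei with a Zbbx UMI had 2.99-fold more axonemal UMIs (2.81 to 3.19) than those without, at median depths of 10535 and 10460.5 UMIs, but 0.803 of the organizer level (0.748 to 0.862). Nuclei with Cfap44 had 2.49-fold more (2.34 to 2.65), and an organizer level of 0.925 (0.864 to 0.989). Nuclei with Noto had 1.95-fold more (1.83 to 2.08), and an organizer level of 1.07 (0.998 to 1.15).

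**Figure D3:**
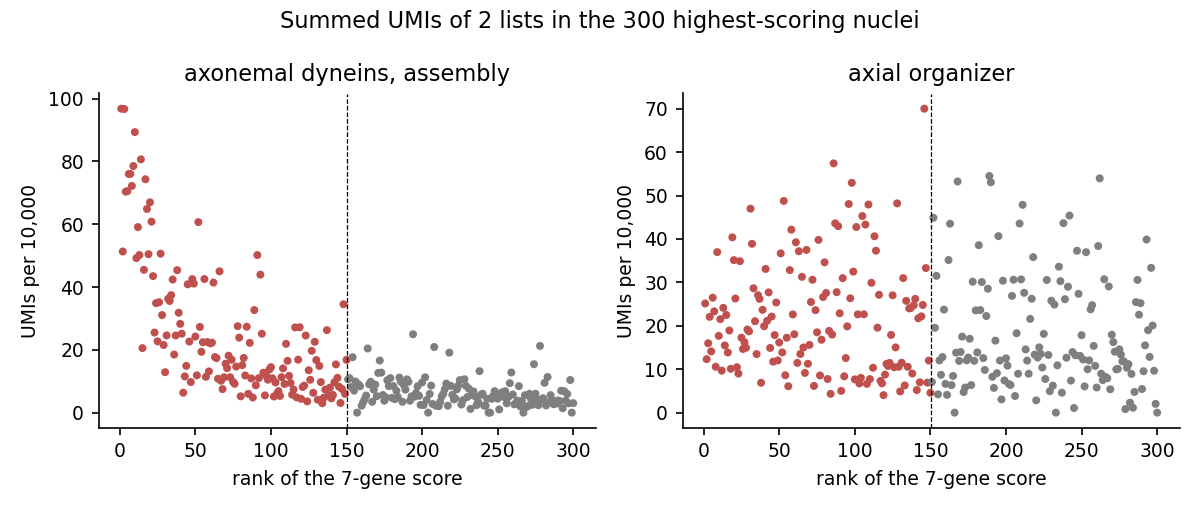
Summed UMIs per 10000 of the axonemal list (left) and the organizer list (right) in the 300 nuclei of highest score among the 702 ranked. Red points are the 150 nuclei and grey points the next 150. The axonemal list falls from up to 96.8 in the first ranks, while the organizer list spreads from 4.03 to 70.0 over the 150.

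At promoters the cilium lists were flatter than in RNA. A promoter ran from 1000 bases before to 100 bases after a start. Over 21472 genes with promoter peaks, 8.15% were at least 1.5-fold more accessible in the 150 and 13.4% at least 1.5-fold less. The axonemal list had a promoter ratio of 1.08 (1.04 to 1.13), with 5 of 48 genes at least 1.5-fold higher and 2 lower. The radial spoke list stood at 1.15 (1.08 to 1.23), the transport list at 0.996 (0.954 to 1.04) and ciliary transcription factors at 0.996 (0.922 to 1.07). Promoters above 1 numbered 34 of 48 for the axonemal list and 23 of 28 for radial spoke genes. They numbered 17 of 37 for transport genes, 4 of 13 for ciliary factors and 8583 of 21472 for all genes. The organizer list was higher at 1.32 (1.23 to 1.42), with 4 of 17 genes at least 1.5-fold higher and 1 lower. Among the higher were Cer1 at 3.19 (2.40 to 4.17), Foxa2 at 1.62 and Foxd4 at 2.79 (1.89 to 3.96), which had no UMI in the 150. The lower one was Nkx1-2 at 0.505 (0.164 to 1.18). The left-right list stood at 1.01 (0.929 to 1.09) and the Hedgehog list at 0.975 (0.905 to 1.05). Of 15 left-right promoters, 4 were at least 1.5-fold higher and 1 lower, and of 17 Hedgehog promoters none was higher and 1 lower. Cfc1 was the highest left-right promoter at 3.83 (2.41 to 5.81). The RNA ratios of Cfc1 and Cer1 were 1.98 and 2.74. The visceral endoderm list was lower at 0.530 (0.405 to 0.681). The promoters of Ccdc151 and Iqca, printed above, gave 1.05 (0.867 to 1.27) and 1.12 (0.756 to 1.59), while their RNA ratios were 27.8 and 37.7. The Iqca RNA ratio rests on few UMIs, 7 in the 140 members of the main accessibility cluster. Cfap44 gave 0.848 (0.547 to 1.25) at its promoter.

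**Figure D4:**
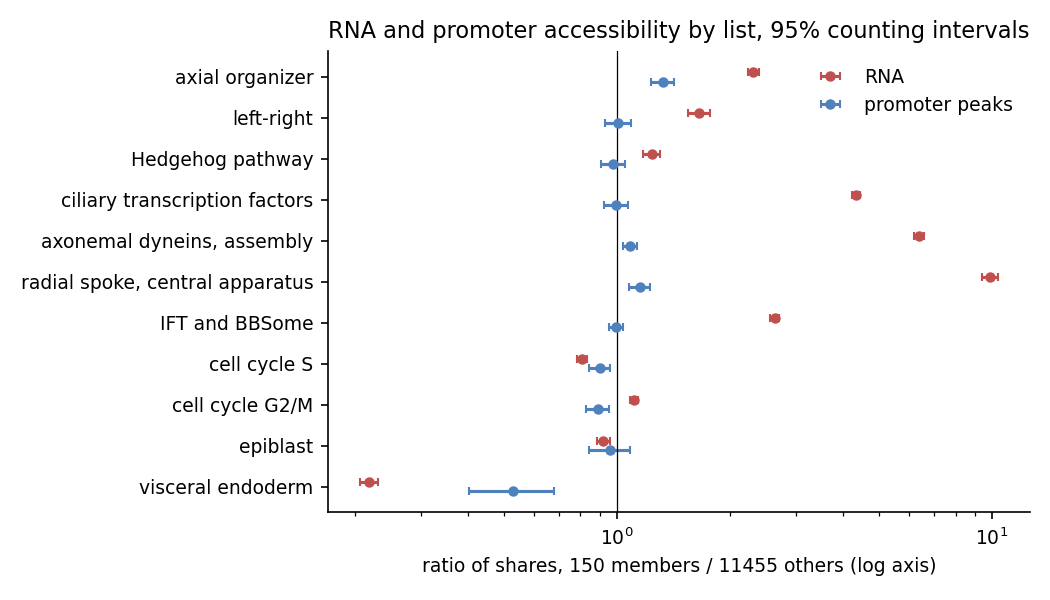
Ratio of the 150 nuclei to the 11455 others for RNA (red) and promoter peaks (blue) of 11 lists (log axis, bars are 95% counting intervals). The axonemal, radial spoke and transport lists lie between 2.64 and 9.89 in RNA and between 0.996 and 1.15 at promoters; the RNA ratio of the ciliary factor list, 4.35, falls to 1.20 without Rfx3.

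The balance of more and less accessible peaks depended on the minimum count, and no direction is read from it. With at least 20 counts expected from the others, 566 of 29720 peaks (1.90%) were at least 2-fold higher and 1992 (6.70%) at least 2-fold lower. Of 39091 peaks with at least 20 counts observed or expected in the 150, 5898 (15.1%) were at least 2-fold higher and 1992 (5.10%) at least 2-fold lower, but this minimum lets a peak weak in the others in only where it is high in the 150, while the first leaves such peaks out. By the minimum on the others, 3.32% of 15112 distal peaks and 0.438% of 14608 promoter peaks were at least 2-fold higher. Within 50000 bases of the genes of a list, 4 of 69 distal peaks were higher for the axonemal list, 0 of 35 for radial spoke genes, 1 of 29 for transport genes and 4 of 50 for organizer genes.

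Around the rule genes 4 of 16 distal peaks were higher by that minimum. The peaks named next also include weaker ones, and 10 of the 16 that were at least 2-fold higher had fewer than 20 counts expected, so their counts are a description. The files place their starts at chr6:85423886 for Noto, chr5:28467256 for Shh, chr11:116335399 for Foxj1, chr16:20733127 for Chrd, chr3:75143703 for Zbbx and chr16:44394799 for Cfap44. By the minimum that also counts the 150, 15.1% of all 39091 peaks and 23.5% of the 23733 distal peaks were at least 2-fold higher. The counts per gene mix distal and promoter peaks, so both shares stand beside them. Near Noto, 3 of 11 tested peaks were at least 2-fold higher: chr6:85412619-85413531 at 8.76-fold (6.24 to 12.03), in 33 of the 150 nuclei and 343 others, chr6:85415522-85416446 at 7.38-fold (5.54 to 9.68), both outside any RefSeq gene and 10810 and 7901 bases from the start, and the promoter peak chr6:85423552-85424474, which contains the Noto promoter printed above, at 2.57-fold (1.77 to 3.61). All coordinates are in mm10. Near Foxj1, 5 of 11 were higher. Of these, chr11:116314742-116315585 was 9.39-fold (4.70 to 17.1) and chr11:116312093-116312981 8.77-fold higher (6.16 to 12.2), both outside any RefSeq gene and with Exoc7 as the nearest start, while the Foxj1 promoter peak itself, chr11:116335067-116335935, stood at 1.12 (0.848 to 1.46). Near Chrd, 4 of 11 were higher, the first of them chr16:20729872-20730828, a promoter peak of the neighbouring gene Thpo 247 bases from its start, at 4.24-fold (3.34 to 5.32) in 62 nuclei, with the Chrd promoter at 1.33 (0.992 to 1.75). For Pkd1l1, 3 of 15 peaks within reach passed the minimum, 2 of them through the 150 alone. The peak chr11:8985946-8986822, which passed on the others, was 3.60-fold higher, and chr11:8970272-8971060 inside the gene, with 31 counts against 3.52 expected, 8.80-fold (4.90 to 14.8). The file places the start of Pkd1l1 at 8950539, and RefSeq has a promoter at 8974710 to 8974959. Shh had 4 tested peaks, none of them 2-fold higher and 1 at least 2-fold lower, at 0.486 (0.195 to 1.01). Zbbx had 1 tested peak, at 2.23 (1.39 to 3.39). Cfap44 had 2, its promoter peak at 0.848 and a distal one at 0.612 (0.415 to 0.870), neither of them higher.

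**Figure D5:**
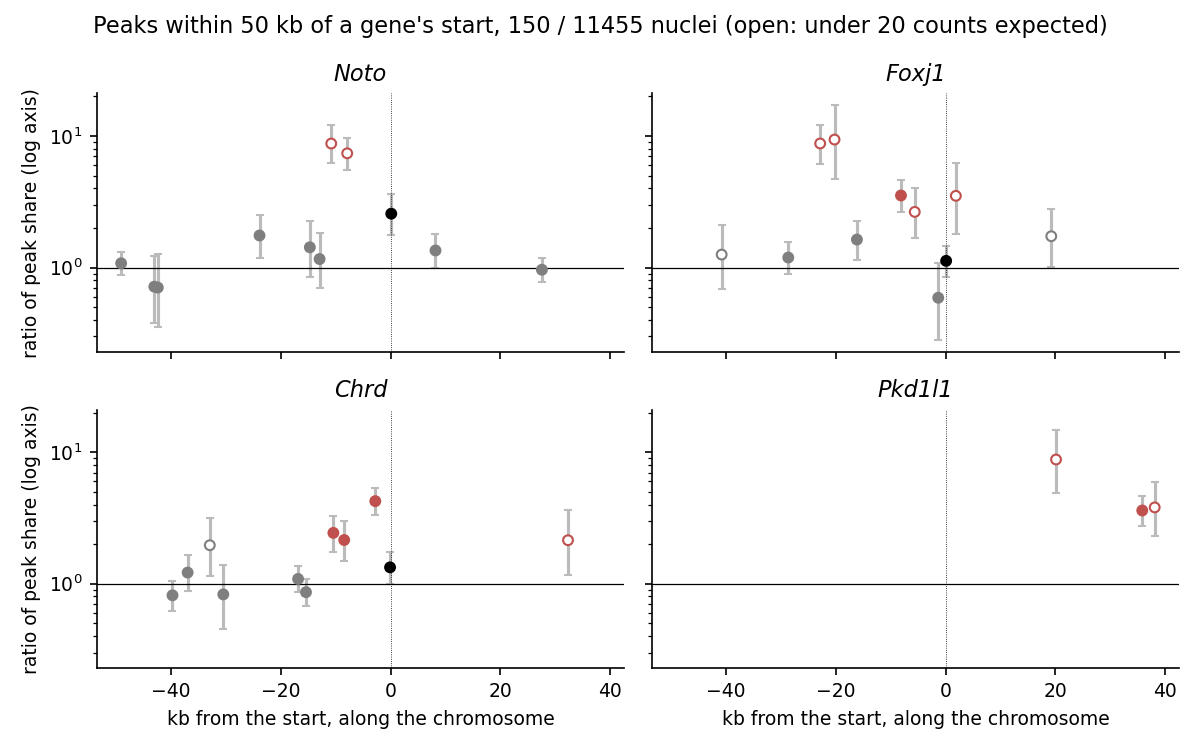
Ratio of peak share in the 150 nuclei to that in the 11455 others for each tested peak within 50000 bases of 4 rule genes' starts, by distance along the chromosome (kb) (log axis; bars are 95% counting intervals; black, own promoter; red, at least 2-fold; open, under 20 counts expected from the others). The Foxj1 promoter lies at 1.12 while its distal peaks reach 9.39.

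Against the 810 cluster mates, 14 of these 16 peaks had a lower ratio than over all others. The other two were chr11:116329342-116330225 near Foxj1, at 3.51 against 2.65, and chr16:20765025-20765917 near Chrd, at 2.31 against 2.14. The distal Noto peaks stood at 2.03 (1.37 to 2.94) and 1.85 (1.35 to 2.51), and the Foxj1 peaks named above at 3.47 (1.56 to 7.39) and 1.49 (0.999 to 2.17). The Pkd1l1 peak inside the gene gave 1.16 (0.607 to 2.08) and chr11:8985946-8986822 gave 1.05 (0.784 to 1.38), intervals that include 1, while chr11:8988216-8989080 stood at 2.08 (1.15 to 3.61). Pkd1l1 RNA was 4.28-fold higher in the members, which the choice fixes. Of 30260 peaks with at least 20 counts expected from the mates, 0.631% were at least 2-fold higher and 5.06% at least 2-fold lower in the members. By the minimum that also counts the members, the shares were 6.12% and 4.19%.

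Of the 10 peaks of highest ratio over all other nuclei, 2 lay in or nearest to a cilium gene, Cfap54 and Ccdc39. All 10 had fewer than 20 counts expected and entered through the 150, so they are given as a description. The peak chr10:92869776-92870704 inside Cfap54 was 21.3-fold higher (13.5 to 32.6) over the others and 9.52-fold (5.08 to 18.3) over cluster mates. The peak chr3:33867464-33868330, 23595 bases from the start of Ccdc39, was 23.3-fold higher (14.97 to 35.3). The first peak, chr1:14013220-14014163, lay 290878 bases from Eya1, at 33.7-fold (20.9 to 52.9) in 22 nuclei. Eya1 had 69 UMIs and was 3.97-fold higher (3.07 to 5.06) in RNA. The peak chr1:136939369-136940021 lay in Nr5a2, at 28.5-fold (17.8 to 44.4), where Nr5a2 RNA gave 2 UMIs. RNA of Eya1 and Nr5a2 was looked up after these peaks were seen.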

How the data were processed

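The authors deposited 1 matrix of whole-number counts, RNA UMI counts per gene and counts per accessibility peak, not normalized, with gene, peak and barcode tables. Cell Ranger ARC 2.0.0 and mm10 are named in the submitters' processing notes. What was filtered before deposit is not given in the sources used here. Members and gene lists were chosen with earlier results of these data known, and the 23 lists beside the rule genes were also partly shaped by them, so they give no independent support. The samples were 2, an RNA and an accessibility library from the same nuclei, with 182201512 UMIs and 273131304 peak counts in 15341 barcodes.

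Counts were summed over nuclei and divided by summed depth (CPM). Ratios of these had exact conditional binomial intervals (SciPy 1.17.1), counting error only, and shares had exact Clopper-Pearson intervals. Of the nonzero peak counts 86.4% were even, as when both fragment ends are counted, so each peak count was converted to fragments (0.5 of it, rounded up) for the intervals. The ratio function was tested on simulated data. Named genes were the 7 rule genes and list genes with at least 20 UMIs and a 2-fold ratio. Also named were the 20 highest ratios outside the rule genes on at least 20 UMIs in at least 10 nuclei, and the 10 lowest on at least 100 expected UMIs. The highest peaks were named by the same rule. Other genes with values stand for their place in a list, and the values of some list genes are not reported here. List genes needed 10 UMIs in all. Doublets were marked by Scrublet (Scanpy 1.11.5; expected share 0.1) and kept, and their removal was an alternative. Accessibility clusters used TF-IDF, 30 singular vectors, 15 neighbours and Leiden (leidenalg 0.10.2) at resolution 1. The comparison with cluster mates, the splits of the 150 by Zbbx and Cfap44, the shares of distal peaks near each list, the minimum set on the comparison nuclei alone, the sums without Rfx3 or 1 nucleus and the choice of promoters and motifs were added after seeing the data. Gene starts are those of the files. Strand came from RefSeq, as did the promoters. Peak sequences and exon annotation were not used here.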

Additional observations from a re-analysis of the deposited data

How the results depend on the processing

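No paired analysis was possible because there was 1 library per assay, and its replicate number was only a name. No ratio whose interval excluded 1 crossed 1 under any alternative run. Removing doublet calls left all 29 results within the main interval or, for counts, within 1.5 times the main count. The causes of the shifts below were not tested, apart from the larger, smaller or shallower choice of nuclei or features that each alternative makes. With the 75 highest scores the ratios were 9.27 for axonemal, 14.95 for radial spoke, 3.27 for transport, 5.27 for ciliary factor, 1.80 for left-right, 0.740 for S phase and 1.16 for G2/M lists, and 2573 peaks were 2-fold higher and 635 lower. With 300 they were 3.95, 5.52, 1.92, 2.97 for the first 4 of these, 2.15 for the organizer list, 1.07 for Hedgehog, 0.850 for S phase and 1.06 for G2/M; the organizer promoters gave 1.22 and the radial spoke promoters 1.06, and 9642 peaks were higher and 4684 lower. At 6000 to 20000 UMIs and at least 5000 peak counts the ratios were 5.80 for axonemal, 8.73 for radial spoke, 2.44 for transport, 4.07 for ciliary factor and 2.09 for organizer lists, with held-out Foxj1 at 31.6 and Pkd1l1 at 33.2. With the mean over nuclei the ciliary factor list gave 4.18. With only the members of the main accessibility cluster, an alternative chosen after seeing the data, the axonemal, ciliary factor and transport lists gave 6.71, 4.51 and 2.72. With at least 20 expected from the comparison nuclei, added after seeing the data, 368 genes and 566 peaks were higher, and 606 and 1992 lower as before, so the balance of both turned; the ciliary factor list gave 1.20 without Rfx3. A minimum of 50 UMIs left 501 genes higher and 334 lower, and at least 1 UMI in each group gave 3023 and 1529. A minimum of 50 counts left 948 peaks higher and 123 lower. At clustering resolution 2 the main cluster held 84.7% of the 150. Shh, Mcidas and Dand5 rest on under 10 UMIs each, and no difference between embryos could be read.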
